A study of Drosophila melanogaster with 3 samples.

Results

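Weak distal peaks of Grain that carry a GATA hexamer were described in embryos of Drosophila melanogaster. Each was a peak of the pooled list whose signal lay below that of every peak in the authors' optimal list. Its summit lay over 1000 bp from the 5' end of every annotated transcript, and the GATA hexamer WGATAR, where W stands for A or T and R for A or G, was present on either strand within 50 bp of the summit. In all, 4406 of the 30000 pooled peaks met these conditions. They made up 29.1% of the 15155 weaker distal peaks, which in turn were part of 23420 weaker peaks. The members were thus chosen by pooled signal, position and the hexamer, and none of these is a result about them. The pooled list was deposited as peaks and background, so a member need not be a bound site.

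The assay was ChIP-seq of a transgenic line that makes Grain, the product of grn, with GFP fused to its C-terminus, precipitated with an antibody against GFP. Whole embryos aged 0 to 24 h, males and females together, gave 1 group of 3 biological replicates, all carrying the same transgene, with no second condition. All stages and cell types of the embryo were mixed. A weak peak may thus be weak in all cells, strong in few of them, or background, and these cannot be told apart. Each replicate and the pool of all 3 was given as a list of 30000 peaks, and the optimal list held 6580. The lists hold no read counts, so depth is unknown, and signal is the authors' own value, on a scale that is not stated.

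GATA factors are zinc-finger proteins named for the sequence they bind, and their family is known for directing blood, gut, heart and epithelial fates in animals. Grain is the Drosophila member known for shaping the posterior spiracles, the openings of the larval tracheal system, and for guiding motor axons. In ChIP-seq, a peak far from promoters is a candidate enhancer, and its summit is the point of highest read coverage, near which a directly bound site would be looked for.

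Windows reaching 50 bases to each side of the summit, from 7 of the members, show what the set holds, from a strong member just under the optimal list to the weakest. The windows are read 5' to 3' on the plus strand of release 6 (dm6). Capitals mark every hexamer, which reads YTATCW (Y is C or T) where it lies on the minus strand.
Nplp2 (among the strongest), chr3L:13364205-13364305: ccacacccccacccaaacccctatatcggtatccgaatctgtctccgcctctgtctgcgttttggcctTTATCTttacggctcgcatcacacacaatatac
InR, chr3R:21587759-21587859: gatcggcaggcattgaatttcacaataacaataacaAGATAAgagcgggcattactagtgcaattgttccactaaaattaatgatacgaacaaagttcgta
caps, chr3L:13233793-13233893: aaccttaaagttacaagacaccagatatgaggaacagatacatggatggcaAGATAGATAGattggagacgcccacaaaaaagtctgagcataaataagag
Egfrap, chr3L:5947392-5947492: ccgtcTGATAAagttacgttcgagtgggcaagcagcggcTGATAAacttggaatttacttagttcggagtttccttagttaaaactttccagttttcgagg
grn, chr3R:8176419-8176519: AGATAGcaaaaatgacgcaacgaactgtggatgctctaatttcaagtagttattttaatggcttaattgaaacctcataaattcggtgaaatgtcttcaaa
ush, chr2L:527882-527982: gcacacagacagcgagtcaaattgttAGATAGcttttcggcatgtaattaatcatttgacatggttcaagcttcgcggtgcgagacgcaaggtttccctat
Ten-m (weakest), chr3L:22383425-22383525: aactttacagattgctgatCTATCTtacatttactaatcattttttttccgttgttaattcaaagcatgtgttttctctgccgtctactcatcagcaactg
The Nplp2, InR and ush windows hold a single copy 11.5 to 21.5 bp from the summit. The caps and Egfrap windows hold 2 copies, which overlap in caps and lie apart in Egfrap. The only copy in the grn window lies 47.5 bp from the summit, at its left edge. The Ten-m peak, in an intron of that adhesion gene, had a pooled signal of 21.96 and was overlapped by no replicate peak.

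The members ranged in pooled signal from 21.96 to 109.7, with a median of 44.94. The lowest optimal signal was 109.7. Just inside this limit were the members at Pgant9, Nplp2 and CG6118, at 109.7, 109.6 and 109.5, and just outside were peaks at caup, nkd and Pde11, all at 109.9. At the distance limit, members at CG4928 and Ncc69 lay 1002 bp from a transcript 5' end, and peaks left out at nuf, CG8112 and Moe lay 998, 996 and 995 bp away. The authors' q-value was at or below 0.05 for 2130 members, or 48.3%, beside 39.4% of all weaker distal peaks and 55.9% of all pooled peaks. For the other members the list itself gives no call at that threshold. These values come from the list that chose the members and are given as a description.

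The hexamer became rarer down the list and stayed above its local background to the end. Among distal pooled peaks it was at 56.4% of summits in ranks 1 to 3000, 40.8% in ranks 6001 to 9000 and 22.1% in ranks 27001 to 30000. Windows centred 500 bp to the right of the same summits, used as flanks, held it in 19.7%, 18.8% and 15.9%. In each replicate's own list, ranked and centred without the pool, the share was likewise highest in the first bin and lower toward the end. In the weakest 3000 peaks the hexamer was at 20.3%, 20.3% and 22.4% of distal summits in replicates 1, 2 and 3, and at 15.4%, 16.6% and 16.2% of flanks. Over each replicate's distal peaks ranked below 6580, 27.8%, 24.8% and 27.4% of summits had it. The mean difference from flanks was 10.04 ± 2.07 percentage points (SD, n = 3), higher in 3 of 3 replicates (exact sign-flip permutation test, two-sided, p = 0.25, which is the lower limit for 3 replicates). No test of 3 replicates can pass 0.05 here or below. Over the 15155 weaker distal pooled peaks, the flanks of 2478 held a hexamer against the summits of 4406.

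**Figure D1:**
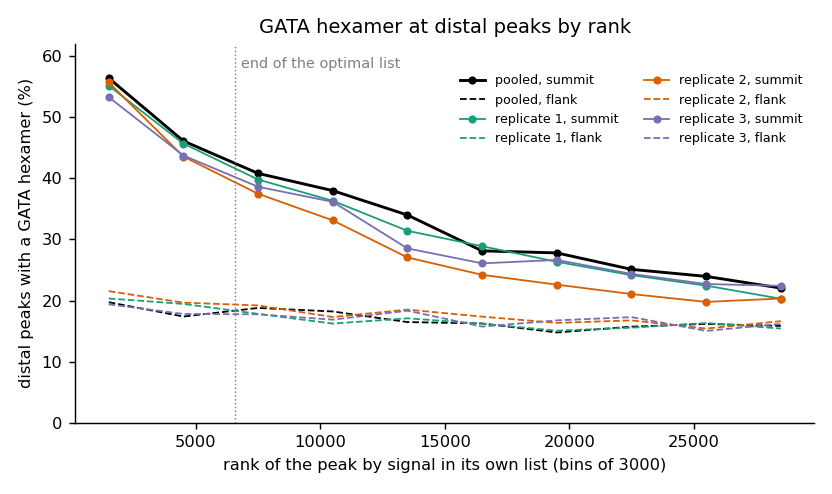
Share of distal peaks with a GATA hexamer within 50 bp of the summit (solid) and in a window 500 bp to the right (dashed), by rank in bins of 3000, for the pooled list and each replicate's own list. The pooled share falls from 56.4% to 22.1%, and in all 4 lists the summit line lies above the flank line in every bin.

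Within the window, hexamers of the members were near the summit about as often as an even spread would place them, and more often than in flanks. A hexamer centre lay within 10 bp of the summit in 1137 members, or 25.8% (95% Wilson interval 24.5 to 27.1%). An even spread of the same number of copies over the window would give 24.6%, a value inside that interval. In the 1624 optimal distal peaks with the hexamer the share was 31.6% (29.4 to 33.9%), where an even spread would give 27.0%. In the flanks it was 21.6% (20.1 to 23.3%), where an even spread of 1 copy would give 20.8%. No even-spread value was made for the copy numbers of the flanks. The part of copy number in the contrast with flanks was not tested. Within 20 bp the shares were 49.4% of members and 43.5% of flanks. Among windows with a hexamer at the replicates' own summits of members, 27.8% ± 1.10 had it within 10 bp. In their flanks 21.1% ± 1.34 did (SD, n = 3). The difference was positive in each replicate, and the part of the rule's window in it was not tested. The median distance was 20.5 bp in members, 17.5 bp in optimal peaks and 22.5 bp in flanks. The share did not follow pooled signal in order: from the lowest to the highest quartile of weaker distal peaks it was 27.2%, 22.8%, 25.0% and 27.7%, where an even spread would give 23.6%, 23.8%, 24.6% and 25.6%.

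**Figure D2:**
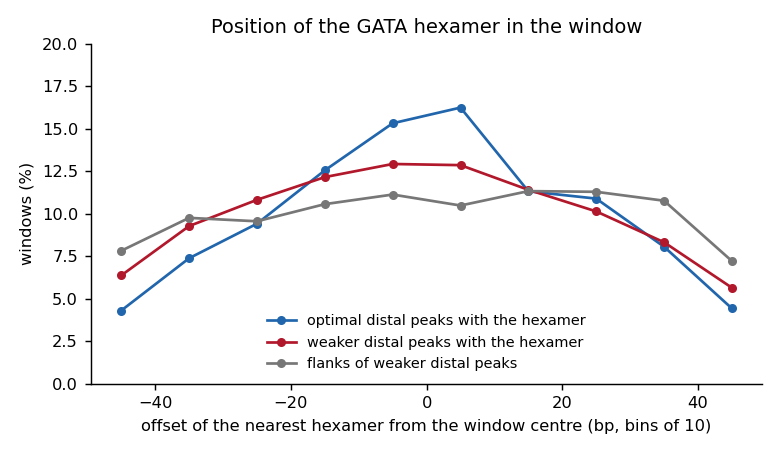
Share of windows (y axis, %) by the offset of the nearest hexamer centre from the window centre (x axis, bp, bins of 10), in optimal distal peaks with the hexamer, in weaker distal peaks with it and in flanks that hold it. The members' curve lies between the other two near the centre, where 25.8% of members, 31.6% of optimal peaks and 21.6% of flanks have a hexamer within 10 bp.

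The letters of the hexamer differed little between weak and strong peaks and more from the flanks. Taking the copy nearest to the summit, AGATAA made up 36.2% of members, TGATAA 36.0%, AGATAG 17.1% and TGATAG 10.7%. In optimal distal peaks these shares were 34.7%, 36.6%, 18.2% and 10.5%, and in flanks 32.2%, 36.8%, 16.4% and 14.6%. At the replicates' own summits TGATAG took 10.4% ± 0.888 against 14.996% ± 0.733 in flanks, lower in 3 of 3. AGATAA took 36.3% ± 0.548 against 32.3% ± 1.38, higher in 3 of 3 (SD, n = 3; exact sign-flip permutation test, two-sided, p = 0.25 for each). For G after the hexamer and C before it, chosen for description after their values were seen, members lay between flanks and optimal peaks. G followed the hexamer in 18.2% of flanks, 26.8% of members and 34.9% of optimal peaks, and C preceded it in 22.0%, 27.2% and 34.1%. Both neighbours together were present in 4.16%, 8.47% and 12.4%. For G before the hexamer members did not lie between, at 16.1% of flanks, 19.6% of members and 17.5% of optimal peaks. The InR window and a second CG6118 member give examples of AGATAA followed by G. The latter is intronic, has a pooled signal of 101.3 and is another peak than the CG6118 member at 109.5. At the replicates' own summits G followed in 28.4% ± 0.866 against 20.6% ± 1.39 in flanks (SD, n = 3). Median GC content of the windows was 40.6% in members and 42.6% in optimal peaks, and its part in these shares was not tested.
CG6118 (second member), chr3R:15428782-15428882: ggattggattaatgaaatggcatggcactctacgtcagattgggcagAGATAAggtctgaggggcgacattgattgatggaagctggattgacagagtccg

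Members mostly held a single hexamer. In 872 members, or 19.8% (18.6 to 21.0%), there were 2 or more copies, against 30.9% (28.7 to 33.2%) of the optimal peaks. The share rose in order with pooled signal, from 15.1% in the lowest quartile to 16.3%, 19.8% and 24.9%. Of the 735 members with exactly 2 copies, 61.8% had both on the same strand, against 57.8% of 389 optimal peaks, and their starts lay a median of 25 and 27 bp apart. In 52 of the 735 the copies overlapped, as at caps. A run of 3 or more GATA units in tandem occurred in 15 members, 0.34% of the set, and in 11 of the optimal peaks, or 0.68%.

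Other motifs gave small differences between summits and flanks. With 19 motifs searched on both strands, the values are means over the replicates' own summits of members and their flanks (SD, n = 3). The homeodomain core TAATTA was in 6.502% ± 0.181 of summit windows and 7.87% ± 0.766 of flanks. TTTATG, the core bound by Abd-B-like Hox proteins, was in 11.9% ± 0.167 and 13.9% ± 0.079. The STAT site TTCNNNGAA was in 2.13% ± 0.195 and 2.91% ± 0.318. These were lower at summits in 3 of 3 replicates. CACGTG, an E box, was higher in 3 of 3, at 1.46% ± 0.126 against 0.995% ± 0.221. The early-embryo Zelda motif CAGGTAG was in 0.611% ± 0.156 and 0.475% ± 0.107. Of all 30000 pooled summit windows, 5.95% held TAATTA, 11.1% TTTATG, 2.42% TTCNNNGAA, 1.34% CACGTG and 0.633% CAGGTAG. Reordered hexamers with the same letters were in 15.04% to 16.7% of summit windows and 14.95% to 16.1% of flanks. Leaving aside WGATAR, which the rule requires, 18 motifs were compared. Of these, 6 were lower at summits in all replicates and 5 were higher, among them 1 of the reordered hexamers. With 3 replicates the test cannot give a p-value below 0.25, so no motif could have passed, and none is read as absent or present from it. The smallest p adjusted over the 19 was 0.396 (exact sign-flip permutation test, two-sided). These 19 include WGATAR, whose direction the rule fixes.

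Most members were overlapped by a listed peak in most replicates, but less often by one with a q-value at or below 0.05. A peak of replicate 1, 2 and 3 overlapped 83.7%, 69.0% and 83.7% of the members by at least 1 bp, a mean of 78.8% ± 8.50 (SD, n = 3). Over all weaker distal peaks the shares were 81%, 66% and 80.9%. All 3 replicates overlapped 2378 members, or 54.0%, beside 49.4% of weaker distal peaks and 99.0% of optimal distal peaks with the hexamer. A further 1330 members were overlapped in 2 replicates, 621 in 1 and 77 in none. In the lowest signal quartile, 18.7% of members were overlapped in all 3. Replicate 2 was the lowest in every set. Counting only replicate peaks with a q-value at or below 0.05, the members' shares were 49.2%, 26.4% and 53.8% in replicates 1, 2 and 3. They were 42.8%, 21.9% and 46.9% without the hexamer, and 100%, 93.3% and 99.4% in optimal distal peaks with it. The pooled list was made from the same reads as the replicates, so these shares describe how far the replicates carry a pooled peak and are no independent count.

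Members were overlapped more often than the 10749 weaker distal peaks without a hexamer, but within quartiles of pooled signal the mean shares differed by less than 1 percentage point. The difference was 3.75, 4.13 and 3.95 percentage points in replicates 1, 2 and 3, a mean of 3.94 ± 0.189 (exact sign-flip permutation test over 3 replicates, two-sided, p = 0.25). The members also had the higher pooled signal, with a median of 44.94 against 37.81. Within quartiles of pooled signal, a split chosen after seeing the data, the mean difference was −0.78, −0.51, −0.83 and 0.12 percentage points from the lowest quartile to the highest. The SDs were 0.315, 2.61, 1.11 and 0.101 (n = 3), and the replicates differed in sign in quartiles 2 and 3. The difference was negative in each replicate in the lowest quartile and positive in each in the highest. The higher mean share over the whole set was thus not seen within any of the lower 3 quartiles, and in the highest the shares were 95.97% and 95.85%. Median ranks of the strongest overlapping replicate peak differed by −1060 ± 267 places (13811 against 14872), members being stronger in 3 of 3 replicates (exact sign-flip permutation test, two-sided, p = 0.25). Pooled signal differs between these sets too, and its part in the rank difference was not tested.

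**Figure D3:**
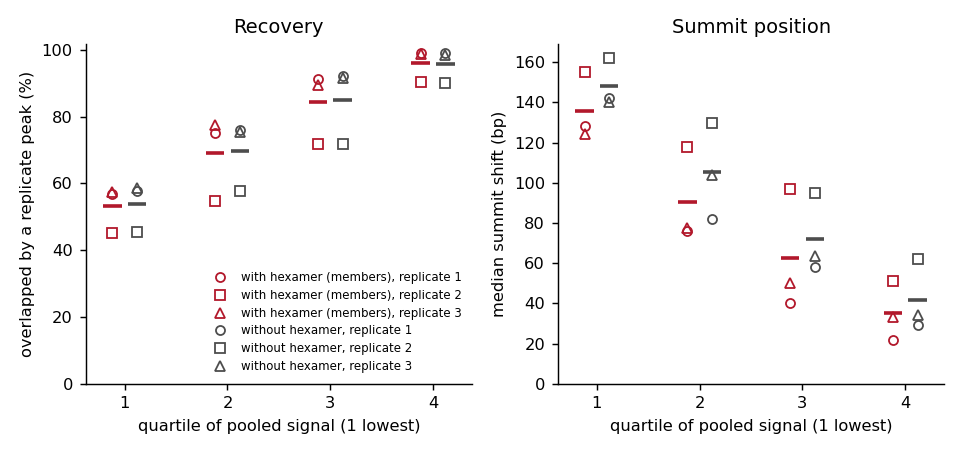
Left, share of weaker distal peaks overlapped by a peak of each replicate (y axis, %), and right, median distance between the pooled summit and the summit of the strongest overlapping replicate peak (y axis, bp), by quartile of pooled signal, for members (red) and peaks without the hexamer (grey). Symbols are replicates and bars their means; the left bars differ by less than 1 percentage point in each quartile, and the distances fall with signal in both sets.

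Summit positions depended on how a replicate peak was matched. With the strongest overlapping replicate peak, members' summits lay a median of 39, 79 and 48 bp from the pooled summit in replicates 1, 2 and 3, against 60, 99 and 69 bp without the hexamer. With the overlapping peak of nearest summit, a match chosen after the first values were seen, the medians were 22, 53 and 30 bp against 28, 61 and 35 bp. The mean difference, members minus peaks without the hexamer, was −20.7 ± 0.577 bp by the first match and −6.33 ± 1.53 bp by the second (SD, n = 3). Within signal quartiles it ranged from −14.7 to −6.33 bp by the first and from −3.33 to 0.333 bp by the second. The matches picked different peaks for 12.4% of members on average over replicates. A hexamer was within 50 bp of the replicate's own summit in 61.9% ± 5.97 of the overlapped members by the first match and 67.4% ± 7.42 by the second, against 17.2% ± 1.10 and 16.7% ± 1.27 in flanks (SD, n = 3). The rule placed a hexamer at the pooled summit of the same reads and so fixed this direction, and no test is drawn from it. Among peaks without a pooled hexamer the first match gave 18.6% ± 1.20 against 16.5% ± 0.619, above the flanks in 3 of 3. The second gave 13.8% ± 2.20 against 16.6% ± 0.637, below them in 3 of 3. That direction turns with the match, and the rule had kept hexamers away from these pooled summits. The part of the rule in the difference between the matches was not tested.

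The 15 strongest members overlapped in all replicates had pooled signals from 108.6 to 109.7. They lay at Pgant9, Nplp2, CG6118, InR, caps, Egfrap, Lmpt, CG16964, CG13896, Inx7, CG12607, Tis11, Moe, Ndae1 and vri, by gene body or, outside genes, by the nearest protein-coding 5' end. The InR member lay in an intron of the insulin receptor gene on arm 3R, 2382 bp from a transcript start, and had ranks of 6706, 8819 and 6505 in replicates 1, 2 and 3. The Nplp2 member was intergenic on arm 3L, 7721 bp from the start of this neuropeptide-like precursor gene, with ranks of 7144, 10308 and 6992. These 2 regions kept similar places in each replicate, a little weaker in replicate 2. The caps member, in an intron of a leucine-rich repeat adhesion gene, had ranks of 6558, 12474 and 7895. At Lmpt, a LIM-domain gene, replicate 3 stood apart, with ranks of 3928, 6783 and 16068. At CG12607 replicate 2 did, with 6362, 21219 and 5334.

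A few of these ranks belong to a stronger neighbour. The Egfrap member lay 200 bp from an optimal summit, and the strongest replicate peaks that overlapped it ranked 225, 186 and 193, while those of nearest summit ranked 5811, 8257 and 193. The Pgant9 member, 208 bp from an optimal summit, went from ranks of 1906, 4326 and 2194 to 14539, 5627 and 11826 in the same way. Inx7, an innexin gene of gap junctions, also had a member beside an optimal summit. Over the whole set, 314 members, or 7.13%, shared bases with an optimal interval, against 7.67% of weaker distal peaks without the hexamer.

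**Figure D4:**
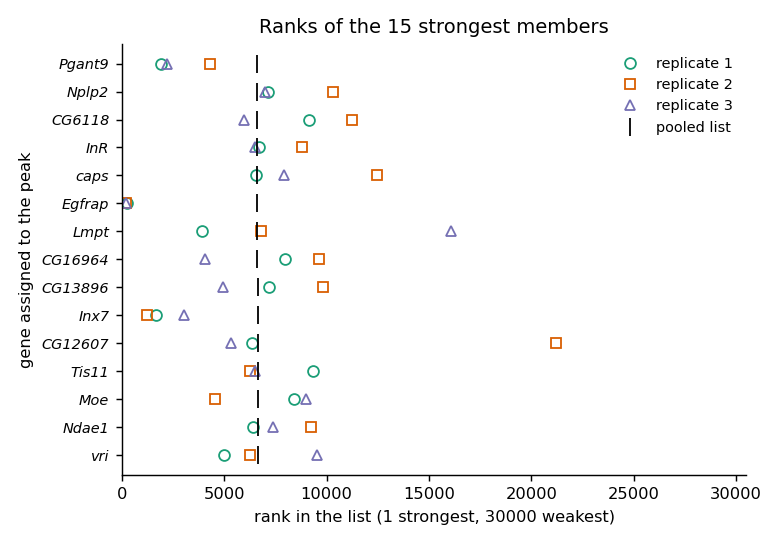
Rank of the strongest overlapping peak in each replicate list (symbols) and rank in the pooled list (black bar) for the 15 strongest members overlapped in all 3 replicates, 1 being the strongest of 30000. Egfrap, Pgant9 and Inx7, within 208 bp of an optimal summit, sit left of their pooled rank; Lmpt and CG12607 each have a replicate far to the right.

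Summits lay in introns for 2906 members, or 66.0% (64.5 to 67.3%), and between genes for 1202, or 27.3%. Another 171 were in untranslated regions, 84 in coding sequence and 43 in noncoding exons. The intronic share was 62.4% (61.4 to 63.3%) without the hexamer and 72.2% (69.9 to 74.3%) in optimal distal peaks with it. The median distance to a transcript 5' end was 3816 bp in members, 4074 bp without the hexamer and 3129 bp in optimal peaks. An optimal summit lay within 5000 bp of 55.7% of members and of 57.0% of peaks without the hexamer. By arm, members per Mb of distal sequence numbered 48.0 on 2L, 37.2 on 2R, 48.4 on 3L, 39.9 on 3R, 44.4 on X and 8.19 on the small arm 4. Optimal distal peaks with the hexamer numbered 18.1, 15.6, 18.1, 15.6, 12.7 and 1.82. The X thus held 18.5% of the members and 14.3% of those optimal peaks, and 18.6% of weaker distal peaks without the hexamer. Within the members, the X share was 23.5% in the lowest signal quartile and 18.3%, 17.6% and 16.4% in the next 3.

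Of 13945 protein-coding genes, 1897 were assigned a member, or 13.6%, by gene body or, outside genes, by the nearest protein-coding 5' end. Gene bodies held 70.6% of the members, and counting only those left 1328 genes. With only members overlapped in all 3 replicates, 1285 genes were left. Of the 1897 genes, 963 were assigned exactly 1, while 219 were assigned 5 or more and together took 1579 members. Genes with a member were long, with a median of 10958 bp against 1951 bp for the rest. Across the genes with a member, the number of members and gene length had a Spearman correlation of 0.42, given as a description, since genes are not replicates. An optimal peak was also present at 64.6% of genes with a member and 15.8% of genes without, and 672 genes had members and no optimal peak.

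The genes with the most members include regulators and cell-surface proteins. The gene hth, which encodes the homeodomain partner of Hox proteins, had 27, of which 24 were inside its 132008 bp, and 21 optimal peaks. Its members ranged in signal from 23.15 to 102.3. The strongest, 7932 bp from an hth start, lay 199 bp from an optimal summit. Next were kirre, an immunoglobulin-family adhesion gene of myoblast fusion, with 20, and Glut4EF with 19. Then came bun, a leucine zipper gene of the TSC-22 family, and Ten-m, a teneurin adhesion gene, with 16 each, luna, a zinc-finger gene, and sick with 15 each, and fz2, a Wingless receptor gene, with 14, as many as klar and heph, named after their values were seen, whose strongest members were weaker. Weak and optimal peaks were not in proportion: bun had 20 optimal peaks, fz2 13, Ten-m 6 and luna 2. Weaker distal peaks without the hexamer outnumbered members at each of these genes, as over the whole set (10749 against 4406). They numbered 58 at hth, 48 at kirre, 40 at Glut4EF, 29 at fz2 and 27 at bun. There were 24 at sick and 20 each at Ten-m and luna. Among genes with no optimal peak, chosen after their values were seen, bru3, an RNA-binding protein gene, had 8 members and disco, a zinc-finger gene, had 7. Of the disco members 1 was inside the gene, and none of the 7 assigned to Cyp12e1 was, so these are assigned by distance only.

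At the GATA genes and their partner, 6 of 6 had a member, beside 13.6% of all protein-coding genes and 36.8% of those of 10000 to 20000 bp, the class of the list's median length. The gene grn itself had 4 members and 24 optimal peaks, and ush, which encodes the zinc-finger partner of GATA factors, 5 and 30. Weaker distal peaks without the hexamer numbered 16 at grn and 23 at ush. The strongest grn member, the window shown with its copy at the edge, had a signal of 93.00 and lay 205 bp from an optimal summit. Its strongest overlapping peaks ranked 1097, 394 and 2116, and those of nearest summit 5323, 5608 and 16797. The next, at 90.18 and 1522 bp from a grn start, ranked 10548, 4619 and 13405. The strongest ush member, at 83.49, ranked 16201, 4624 and 6820. GATAe, the gut GATA gene, had 3 members, the strongest with 3 hexamers at a signal of 76.67. The grn locus is also the source of the tagged protein, and whether the transgene adds copies of its sequence is not stated.

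In the posterior spiracle list 15 of 18 genes had a member, also beside 36.8%. The most were at cv-c, a gene needed for spiracle invagination, with 11, vvl, a POU-domain gene, with 10, and trh, the tracheal bHLH-PAS gene, with 9. Weaker distal peaks without the hexamer numbered 33, 34 and 12 at these genes. The strongest vvl member lay 34424 bp from the gene, between genes, so its assignment is by distance. There was none at dome, the receptor gene of the JAK/STAT pathway. In that pathway's list 4 of 8 genes had a member, beside 17.9% of genes of 5000 to 10000 bp. The count was 2 of 8 when only members inside gene bodies, or only members overlapped in all 3 replicates, were counted. Ptp61F, a phosphatase gene, had 9 and Stat92E 5, its strongest at 92.87 and 1012 bp from a start, while upd3 had 2 and upd2, also a ligand gene, none. Tracheal fate and FGF genes had members in 8 of 14, beside 36.8% of genes of their length class, with 11 at the ETS gene pnt and none at tgo. One of the 14, written tal in the list, was matched to Taldo, a gene of 1705 bp with no member, and this match is in doubt. Without Taldo the middle gene by length is knrl, at 23519 bp. Its class, 20000 to 50000 bp, had a member at 59.5% of genes, so the gap depends on this match.

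Motor axon guidance and adhesion genes are long, and 17 of 19 had a member, beside 69.7% of genes of 50000 bp or more. Sema1a, a semaphorin gene, had 11 members and 1 optimal peak. The gene of the midline repellent Slit, sli, had 6 and 9. The phosphatase gene Ptp99A, 109486 bp long, had no member but 5 weaker distal peaks without the hexamer. Motor neuron transcription factors had members in 7 of 8 genes, with 7 at the LIM-homeodomain gene tup, 6 at exex and none at HGTX, beside 36.8%. Of 8 Hox genes 7 had a member, beside 59.5%. Ubx and Antp had 4 each, and lab had 3, the strongest with 4 hexamers. The remaining Hox gene, pb, had none but 8 weaker distal peaks without the hexamer.

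Gut and endoderm genes had members in 12 of 17, with 4 at hh, the Hedgehog ligand gene, and 4 at dpp, the BMP ligand gene, and none at byn. Of the BMP signalling genes 6 of 15 had a member, with 6 members at the receptor gene tkv and 4 at shn, which also had 22 optimal peaks, and none at the ligand gene gbb. Blood and cardiac mesoderm genes had members in 13 of 16, with 4 each at Mef2 and at Doc1, a T-box gene, and none at lz. With members inside gene bodies only, 5 of these 16 had a member. These 3 lists have median lengths in the class where 17.9% of genes had a member. Genes of olfactory receptors and cytosolic ribosomal proteins, listed for contrast, had a member in 1 of 26 and 1 of 25, beside 5.06% of genes under 2000 bp. The olfactory receptor gene was Or67d, with 8 members, of which the strongest lay 57803 bp away, in an intron of another annotated gene. Several lists share genes, and list genes differ from others in intron length and in the extent of sequence around them, whose part in these counts was not tested.

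**Figure D5:**
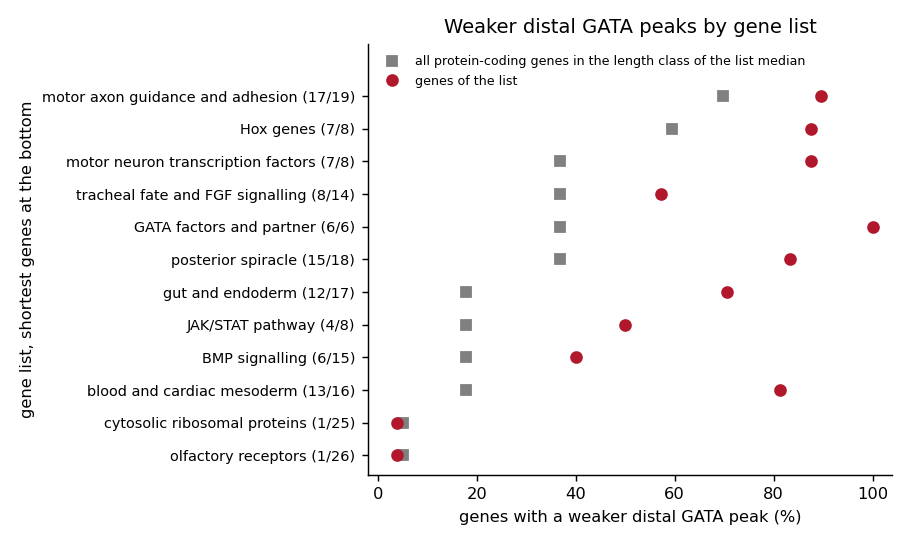
Share of genes with at least 1 member (x axis, %) for 12 gene lists (red, with counts) and for all protein-coding genes in the length class of each list's median (grey squares). Olfactory receptor and ribosomal protein genes lie near 4% at 1 of 26 and 1 of 25 genes, and the GATA list reaches 6 of 6. The tracheal list and its length class include Taldo, a doubtful match to the name tal.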

How the data were processed

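Peak lists of 3 biological replicates of 1 group were used. Each replicate list was derived, per the deposited file descriptions, from its alignments and a control, the pooled list from all 3, and the optimal list by a test of irreproducible discovery rate. Aligner and peak caller were not named in the sources used here. The deposited signal is a score per peak of unstated scale, set in each list, and the deposited −log10 q-value is capped at 4.21 in the pooled list. Chromatin was sheared to 200 to 800 bp, per the labels. Signals were ranked within a list only. Depth is unknown.

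Summits, coordinates (dm6, counted from 1) and sequences used release 6 of the genome (RefSeq) and Ensembl release 115 annotation without transposable elements. Flanks were equal windows moved 500 bp rightward. A replicate peak counted as found with an overlap of at least 1 bp, and its rank and summit are those of the strongest overlapping peak. The match by nearest summit was added after those values were seen. Differences were tested over 3 replicates by an exact sign-flip permutation test, two-sided, with Benjamini-Hochberg adjustment over the 16 comparisons of replicate overlap, rank and summits (lowest adjusted p = 0.333; the rule bears on the 2 that ask for a hexamer at a replicate summit) and over the 19 motifs. Wilson intervals cover counting error only. The code was tested on simulated data. Python 3.11.15, NumPy 2.4.6, pandas 2.3.3 and SciPy 1.17.1 were used.

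Members and lists were chosen with earlier results of these data known. Genes named are grn, ush, those of the 15 strongest members found in 3 replicates, the 8 with most members (ties by the strongest member), and of each of 12 lists up to 3 with most members and 1 with none. Others are said to be chosen later. A few named items that this rule gives are not reported here. The dm3 lists served as an alternative. The control was not analysed here.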

Additional observations from a re-analysis of the deposited data

How the results depend on the processing

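Of 113 settings tried on the results, 91 left the value on the same side or within its spread. The 91 include settings of the members' summit-minus-flank difference, whose direction the rule fixes. They also include a gene count that went from 1897 to 1328 with gene bodies only, so the tally is no measure of stability. The number of members was 2496 with the hexamer within 25 bp of the summit, 6909 within 100 bp and 2203 for the members of higher pooled signal. The mean share overlapped by replicate peaks was 60.3% with summits within 100 bp, 59.3% with the 20000 strongest replicate peaks and 92.6% for the members of higher signal. The mean difference from peaks without the hexamer was negative within the lower 3 signal quartiles, a split chosen after seeing the data. It was −0.784 ± 0.315, −0.508 ± 2.61 and −0.831 ± 1.11 percentage points (SD, n = 3). Replicates 1, 2 and 3 gave −0.86, −2.93 and 2.27 in quartile 2, and −0.69, 0.21 and −2.01 in quartile 3, so no consistent direction was seen there. The hexamer at the replicates' own summits in peaks without a pooled one was reversed from 2.04 points above the flanks to −2.89 with the nearest summit, also chosen after seeing the data. The cause was not tested. A hexamer lay within 5 bp of the summit in 13.6% of members and within 20 bp in 49.4%. Shares with 2 or more copies were 11.3% (within 25 bp), 31.9% (within 100 bp) and 23.2% (higher signal), and the intronic share was 67.6% for higher signal.

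Leaving out each replicate gave 76.3% to 83.7% for the share overlapped, 3.85 to 4.04 points for its difference, −920.5 to −1186 places for the rank difference, and 41.9 to 48.6 points for the members' summit-minus-flank difference, whose direction the rule fixes, so that this range is no sign of stability. No analysis paired across groups was possible because the series has 1 group, so replicate numbers join no samples across groups. The tests used differences within each replicate. Counting only members inside gene bodies left 2 JAK/STAT genes of 4, 5 blood and cardiac genes of 13, and 0 olfactory receptor or ribosomal protein genes of 1 each. Counting only members overlapped in all replicates left 2 JAK/STAT genes and 0 ribosomal protein genes. The dm3 lists gave 23528 weaker peaks, 78.3% of them overlapped, against 78.4% in dm6.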
